A study of Rattus norvegicus with 6 samples.

Results

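GATA and Cdx transcription factors set the regional character of the gut epithelium, and 4 of the 7 genes chosen for that role could be measured in the rat ileum: Gata4, Gata5, Gata6 and Cdx2. Each was taken as the array row that the platform annotation names for that gene alone, out of 14506 genes so named and tested. Cdx1, Pdx1 and Onecut2 had no such row and were not analysed here. All 6 rats were Zucker fa/fa, which carry a defective leptin receptor and are obese, and were operated on at 20 weeks of age. In 3 rats a duodenum-jejunum bypass (DJB) led food from the start of the duodenum straight into the distal jejunum, with bile and pancreatic juice joining further down. The other 3 had a sham operation in which the gut was cut and rejoined in its normal order. The ileum was taken 14 days later, and RNA of each rat went on 1 Affymetrix whole-transcript array. Both groups share the fa/fa genotype, and no lean or unoperated rats enter the comparison.

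In the adult small intestine, GATA4 is known as a factor of the duodenum and jejunum, where it keeps absorptive genes of the upper gut on and ileal genes off. GATA6 is made along the whole small intestine and GATA5 mainly in the differentiated cells of the villus. CDX2 holds the epithelium to an intestinal rather than a gastric identity along the whole gut. The ileum is the segment that takes up bile acids and vitamin B12.

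Values are log2 expression levels after RMA, the normalisation that the submitters' processing notes name, so a difference of 1 is a factor of 2. Changes are DJB minus sham with the standard error (SE) of the limma fit, and a gene rose or fell only where its p, adjusted by Benjamini-Hochberg across the whole table of genes, was under 0.05. Median levels of the arrays were 6.08 to 6.19, and precision is limited by having 3 arrays per group. Fabp6 and Slc10a2, the ileal bile acid binding protein and bile acid transporter, lay at 13.44 or above and at 9.90 or above on the 6 arrays, and the median of all rows was 6.11. The smooth muscle actin gene Acta2 lay at 11.64 or above, so RNA of contractile cells of the gut wall was in the samples. In whole tissue, fewer cells of a type and less RNA per cell cannot be told apart.

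Of the 4 measured genes, Gata4 was the one that differed most between the groups, at less than 0.5 of its sham level after DJB, while Cdx2 and Gata6 lay close to their sham levels and Gata5 was slightly lower. No member passed the adjusted threshold over all genes, which 0.772% of the genes tested did. In Gata4 and Gata5 all 3 DJB values lay below all 3 sham values, a pattern seen in 6.56% of all genes tested, where 21.1% had groups that did not overlap in either direction. At an unadjusted limma p under 0.05, Gata4 and Gata5 were found, as were 14.3% of all genes tested, and the counts at this level given below for other lists are to be read beside that share. All 4 rows had a mean above the median of all rows, 6.11, and no row was removed for low values. The Gata4 value of DJB 2, 5.97, lay below that median.

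Gata4 stood at 7.83, 7.82 and 7.36 in sham rats 1 to 3 and at 6.95, 5.97 and 6.55 in DJB rats 1 to 3. The groups did not overlap, DJB 2 was the lowest of all arrays, and the lowest sham array lay above the highest DJB array by less than the range within the DJB group. The sham mean was 7.67 ± 0.27 (SD, n = 3) and the DJB mean 6.49 ± 0.49 (SD, n = 3). The difference was -1.18 ± 0.23 (SE), or 0.441 of the sham level (95% interval 0.307 to 0.634). The limma p was 0.000634 and its adjusted value 0.0643, so the difference missed the threshold over all genes. Permuting the 6 values exactly (two-sided) gave p = 0.1, the smallest that 3 against 3 arrays can give. The change was the 35th largest decrease among the 14506 genes. Gata4 passed when rows of low level were left out (adjusted p = 0.0339), with arrays centred on their medians (0.0454) and without DJB 1 (0.0289), and over all 13 alternatives its adjusted p ranged from 0.0289 to 0.191 by limma, with a lower value after DJB in each.

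Gata5 read 9.78, 9.69 and 10.04 in the sham rats and 9.58, 9.57 and 9.36 in the DJB rats. The groups were apart by a narrow gap between sham 2 and DJB 1. The change was -0.34 ± 0.12 (SE; 95% interval of the ratio 0.657 to 0.956) with a limma adjusted p of 0.254, which did not pass. Without sham 3, the highest array, the change was -0.24.

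Gata6 had sham levels of 8.56, 8.38 and 8.83 and DJB levels of 8.51, 8.42 and 8.46. The DJB values lay inside the sham range, and sham 3 was again the highest array. The difference of -0.13 ± 0.12 (SE) had a limma adjusted p of 0.684. Its 95% interval, 0.753 to 1.11 of the sham level, leaves room for a modest decrease but not for one of the size measured for Gata4. Without sham 3 the difference was -0.01.

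Cdx2 was the steadiest of the 4 genes, at 10.12, 10.11 and 10.28 in sham and 10.14, 10.30 and 10.15 after DJB. The groups overlapped throughout. The difference was 0.03 ± 0.10 (SE) with a limma adjusted p of 0.935, and the 95% interval of the ratio ran from 0.870 to 1.19. Its sign turned with arrays centred on their medians and without sham 2 or DJB 2.

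**Figure D1:**
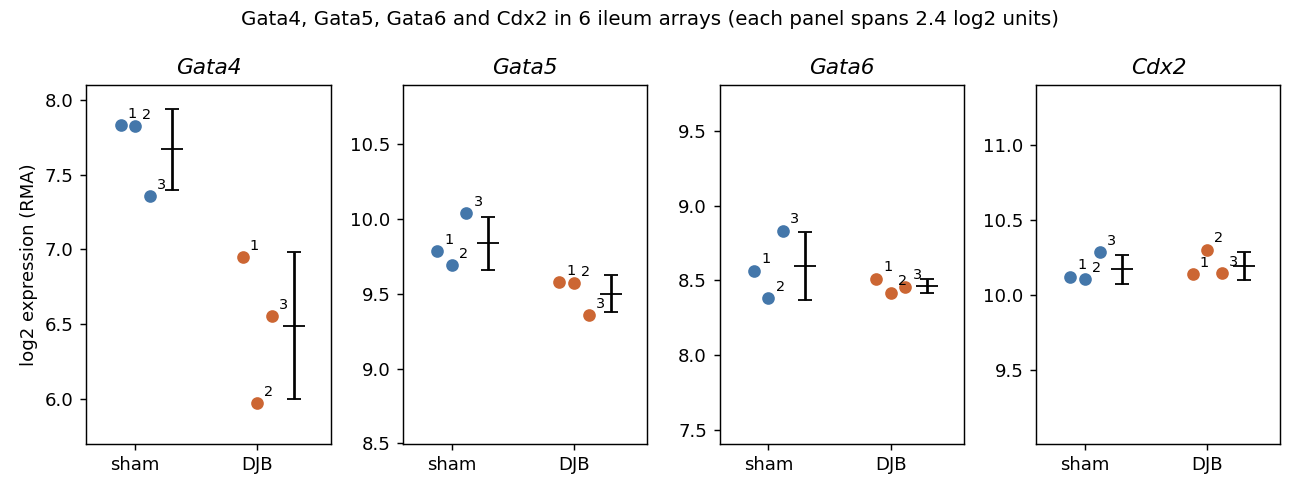
Log2 expression of Gata4, Gata5, Gata6 and Cdx2 in each array (points, numbered by rat; vertical axis, log2 RMA level, of equal span in all panels), with the mean and SD of each group of 3 beside them. The Gata4 points of DJB lie between 5.97 and 6.95 and those of sham between 7.36 and 7.83, whereas the Cdx2 and Gata6 points of the groups overlap.

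Whether Gata4 differed from the other 3 members was tested on the difference of log2 values within each array, which cancels anything shared by the whole array. Gata4 was taken because its change was the largest among the members on these same arrays. That choice favours wide gaps, so they are a description and no independent evidence. The Gata4 change was lower than that of Cdx2 by 1.21, with within-array differences of -2.29, -2.28 and -2.93 in sham and -3.19, -4.33 and -3.60 after DJB. These groups did not overlap (exact two-sided permutation p = 0.1, the smallest possible; adjusted over the 3 pairs, 0.15). Against Gata6 it was lower by 1.05, again with no overlap (exact permutation p = 0.1; adjusted 0.15). Against Gata5 the gap was 0.844, and the groups overlapped because sham 3 and DJB 1 lay side by side at -2.68 and -2.63 (exact permutation p = 0.2; adjusted 0.2). None of the 3 pairs could pass 0.05 with 3 arrays per group.

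Relatives and cofactors of these factors were measured for 9 of 11 listed genes, and 0 of them passed, with a median change of 0.03 beside 0.05 for all genes tested and 1 at an unadjusted limma p under 0.05. Zfpm1, which encodes the GATA cofactor FOG1, read 6.62, 6.46 and 6.46 in sham and 6.15, 6.13 and 6.29 after DJB. Its groups did not overlap, and the change of -0.32 ± 0.10 (SE) had a limma adjusted p of 0.191. Zfpm2, the gene for FOG2, differed by 0.22 ± 0.11 (SE; limma adjusted p = 0.390), also without overlap. Over the 9 genes, 1 had all DJB values lower and 2 had all higher, beside 6.56% and 14.5% of all genes tested. The Zfpm2 row was dim, below the median of all rows. Of the 9 genes, 2 had rows above that median, so for most of this list a difference may be understated.

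Other transcription factors of the gut epithelium were measured for 15 of 22 listed genes, and 0 passed, 8 being higher and 7 lower with a median change of 0.01. At an unadjusted limma p under 0.05 there were 2 of the 15, near the share of 14.3% over all genes tested. Creb3l3, a membrane-bound factor of lipid metabolism in liver and gut, had the lowest p of these, with sham levels of 10.59, 10.95 and 10.95 and DJB levels of 10.59, 10.06 and 10.18. Sham 1 and DJB 1 were nearly equal, and the change of -0.56 ± 0.16 (SE) had a limma adjusted p of 0.171. Prox1, which marks enteroendocrine precursors and lymphatic endothelium, differed by -0.39 ± 0.14 (SE; adjusted p = 0.264) on a dim row. Hnf4a, a nuclear receptor that acts beside GATA and CDX2 at enterocyte genes, was at 10.67 in sham and 10.82 after DJB, a difference of 0.15 ± 0.09 (SE; adjusted p = 0.482). 

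**Figure D2:**
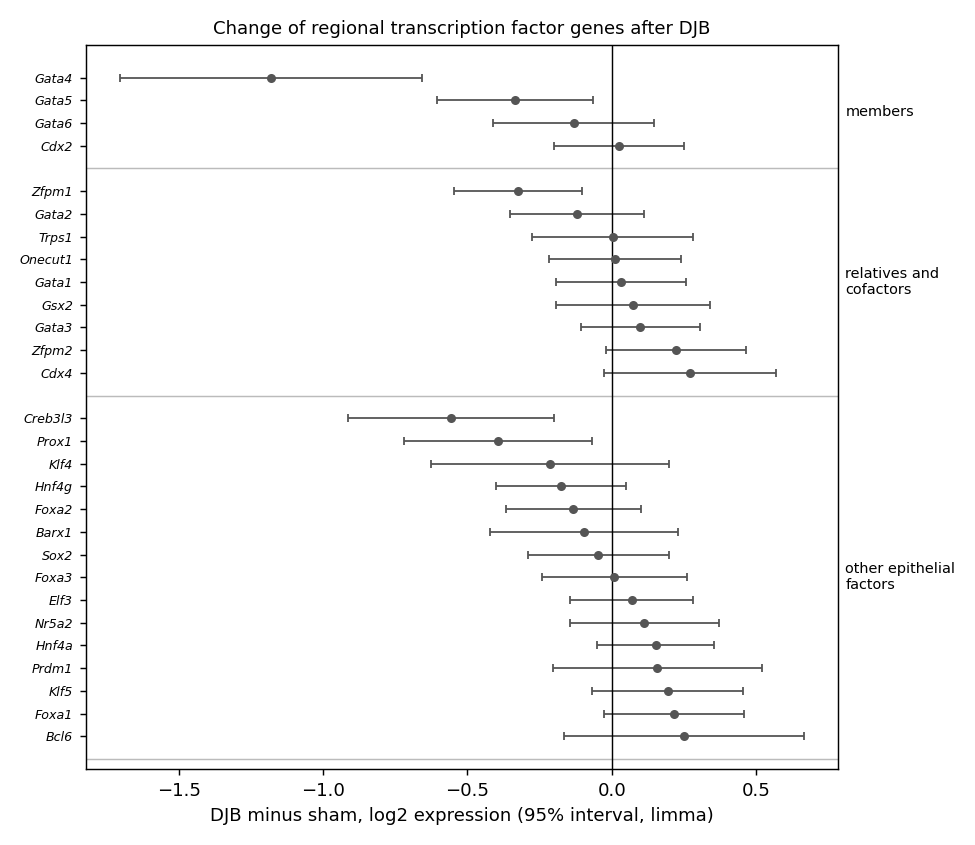
Change of each measured factor (horizontal axis, DJB minus sham in log2 units, with 95% interval from limma), for the 4 members, 9 relatives and cofactors and 15 other epithelial factors. No gene here passes the adjusted threshold, and the Gata4 interval, from -1.70 to -0.66, is the farthest from 0.

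Genes that mark the enterocytes of the upper small intestine, the segment where GATA4 acts, were measured for 18 of 19 listed genes. Of these, 8 fell and 0 rose, 15 were lower after DJB, and the median change was -0.95 beside 0.05 for all genes; over all genes tested 0.379% fell. The 8 that fell were Enpp7 (sphingomyelin digestion), Slc46a1 (folate uptake), Abcg5 and Abcg8 (sterol export), Apoc3 (chylomicrons), Treh (trehalose digestion), S100g (calcium binding) and Cd36 (fatty acid uptake), with changes from -3.66 for Enpp7 to -0.98 for Cd36. The list was drawn up with falls of several of these genes already known from these arrays, so its counts are no independent evidence of a direction. The count of 8 was 6 without sham 1, 3 without sham 2, 2 without sham 3 or DJB 2, 9 without DJB 1 and 5 without DJB 3. Enpp7 and S100g were called in all 13 alternatives. The genes of this list that were higher were the iron genes Slc40a1 (0.49 ± 0.09, SE; adjusted p = 0.0530), Slc11a2 (0.43 ± 0.11, SE; adjusted p = 0.130) and Cybrd1 (0.18 ± 0.13, SE; adjusted p = 0.569), and none of these passed. At an unadjusted limma p under 0.05 there were 16 of the 18 genes, the higher Slc40a1 and Slc11a2 among them, beside 14.3% of all genes tested.

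By array, the mean log2 level of the 18 genes was 9.97, 10.14 and 10.20 in sham and 9.45, 9.01 and 8.98 after DJB. DJB 1 was the DJB rat nearest to sham in this mean, as it was for Gata4. Within DJB the order differed at the low end, where DJB 2 had the lowest Gata4 level and DJB 3 the lowest list mean. A link between this mean and Gata4 was not tested.

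GATA factors bind the short motif AGATAA and its variants, and promoters were searched for 4 spellings, which are AGATAA and its variant TGATAA as well as AGATAG and its variant TGATAG, on both strands over 250 bases before the start (RefSeq, GRCr8). A match was held by 4 of the 13 upper small intestine genes with a sequence (30.8%) and by 2 of the 6 ileal genes (33.3%), beside 26.7% of all 27457 promoters and 22.9% of those of the genes tested. The shares of both lists are near the background. Of the 8 genes that fell, 5 had a sequence. Enpp7, Abcg5 and Abcg8 held a match, and Slc46a1 and Cd36 did not. Abcg5 and Abcg8 run in opposite directions from a shared stretch of 205 bases, so their 2 matches are the same sites counted for both genes. The Enpp7 promoter holds 1 match, and that of Slc10a2, the ileal gene described next, holds 1 on the opposite strand. Neither Gata6 nor Cdx2, the members with a promoter sequence here, holds a match. A match is a description of the letters and not a measured site. The stretches are shown because they hold a match among the genes that fell or rose in these lists, in lower case with the matches in capitals, the first at chr6:15717731-15717935 (plus strand, from Abcg8 towards Abcg5), the second at chr10:104740513-104740762 (plus strand) and the third at chr16:91087839-91088088 (plus strand).
Abcg5 and Abcg8: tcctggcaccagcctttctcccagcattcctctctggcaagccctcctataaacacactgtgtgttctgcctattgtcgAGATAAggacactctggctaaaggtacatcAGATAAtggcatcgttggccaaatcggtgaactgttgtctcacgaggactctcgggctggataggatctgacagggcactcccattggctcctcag
Enpp7: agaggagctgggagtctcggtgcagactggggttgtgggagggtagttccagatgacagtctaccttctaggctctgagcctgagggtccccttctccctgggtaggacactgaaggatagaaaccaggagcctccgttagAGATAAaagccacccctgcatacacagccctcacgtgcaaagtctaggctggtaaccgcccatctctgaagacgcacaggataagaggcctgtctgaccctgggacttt
Slc10a2: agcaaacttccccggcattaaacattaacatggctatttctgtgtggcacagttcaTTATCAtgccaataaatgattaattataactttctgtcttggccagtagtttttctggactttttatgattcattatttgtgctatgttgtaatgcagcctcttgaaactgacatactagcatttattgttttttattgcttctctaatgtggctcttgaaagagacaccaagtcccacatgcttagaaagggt

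Ileal enterocyte genes, which GATA4 is known to hold down in the jejunum, were measured for 8 of 11 listed genes, and 1 rose while 0 fell, where 0.393% of all genes tested rose. The gene that rose was Slc10a2, at 9.90, 10.54 and 10.75 in sham and 11.91, 12.46 and 12.02 after DJB. Its highest array was DJB 2, the array with the lowest Gata4 level, whereas that of Fabp6 was DJB 3. A link to Gata4 was not tested. The change of 1.73 ± 0.22 (SE; limma adjusted p = 0.0106) was called in 12 of 13 alternatives and was at an adjusted p of 0.0511 with a trended, robust variance. Fabp6 (0.30 ± 0.10, SE; adjusted p = 0.230) and Slc51a, which encodes a component of the transporter that lets bile acids out towards the blood (0.37 ± 0.13, SE; adjusted p = 0.233), did not pass. In both, all DJB values lay above all sham values, a pattern seen in 14.5% of all genes tested. The 3 ileal genes that were lower all serve vitamin B12: Cubn, the ileal receptor of its carrier, at -0.92 ± 0.31 (SE; adjusted p = 0.238), its partner Amn at -0.28 ± 0.13 (adjusted p = 0.393) and the blood carrier Tcn2 at -0.16 ± 0.12 (adjusted p = 0.589). None of the 3 passed, and the median of the 8 genes was 0.34. Also higher were Fgf19 (1.32 ± 0.56 SE, limma adjusted p = 0.335) and Nr0b2 (0.54 ± 0.58 SE, limma adjusted p = 0.726). Both had overlapping groups and did not pass. At an unadjusted limma p under 0.05 there were 5 of the 8 genes, the lower Cubn among them, beside 14.3% of all genes tested. Cubn read 9.86, 10.72 and 10.91 in sham and 10.15, 9.05 and 9.54 after DJB, with overlap at sham 1.

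**Figure D3:**
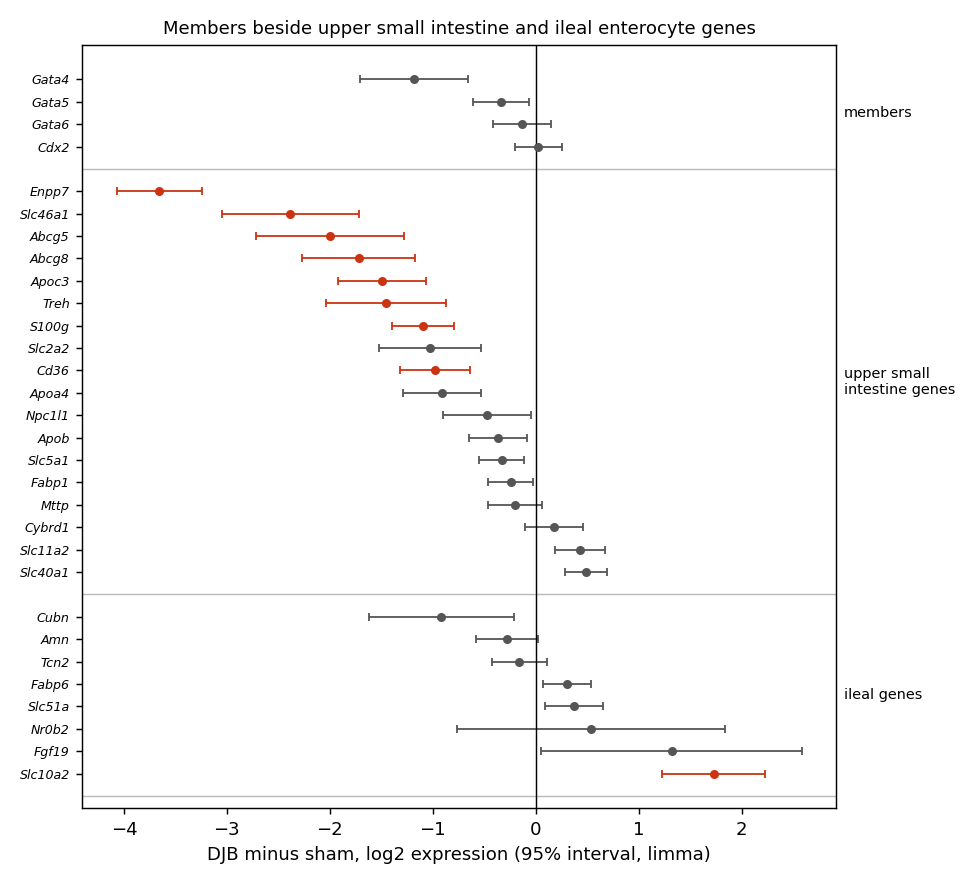
Change (horizontal axis, DJB minus sham in log2 units, with 95% interval from limma) of the 4 members, 18 upper small intestine genes and 8 ileal genes; red marks genes past the adjusted threshold. Red points are 8 upper small intestine genes on the left and Slc10a2 on the right.

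Genes known as Cdx targets were measured for 12 of 14 listed genes, and 0 passed, with 8 lower, 4 higher and a median of -0.05. The 2 of these 12 at an unadjusted limma p under 0.05 are near the 14.3% of all genes tested. Guca2b, which encodes the gut peptide uroguanylin, had the lowest p, at 12.16, 12.09 and 12.37 in sham and 11.84, 11.52 and 11.30 after DJB. Its groups were apart, and the change of -0.66 ± 0.15 (SE) had a limma adjusted p of 0.0989 and passed in 3 of 13 alternatives. Slc15a1, the peptide transporter gene, differed by -0.30 ± 0.12 (SE; adjusted p = 0.295).

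Genes of the duodenum and those linked to Pdx1, whose own row was not at hand, were measured for 9 of 11 listed genes, and 0 passed, with 5 higher, 4 lower and a median of 0.04. At an unadjusted limma p under 0.05 there were 3 of the 9 (14.3% over all genes tested), and they went both ways. Gip, an upper-gut hormone gene, read 6.18, 6.32 and 5.90 in sham and 5.63, 5.82 and 5.46 after DJB on a dim row. The groups did not overlap, and the change of -0.49 ± 0.14 (SE) had a limma adjusted p of 0.165. Cck, another upper-gut hormone gene, differed by -0.33 ± 0.11 (SE; adjusted p = 0.230). The third, the secretin gene Sct, was higher, at 0.46 ± 0.20 (SE; adjusted p = 0.338).

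Markers of other cell types were set beside the Gata4 difference, since GATA factors are also made in smooth muscle, mesothelium and endothelium. All 8 epithelial markers were measured and 0 passed by limma (1 at an unadjusted p under 0.05), and their summed level on the log2 scale was 15.03 to 15.10 in sham and 15.12 to 15.16 after DJB. All epithelial sums of DJB lay above all those of sham. In 3 of the 8 markers the groups did not overlap, with DJB higher, a pattern seen in 14.5% of all genes tested. Among them was Krt8, a keratin gene of the epithelium, at 0.11 ± 0.09 (SE; limma adjusted p = 0.627). For smooth muscle (7 of 8 markers, 0 passed, 1 at an unadjusted p under 0.05) the sums were 13.27 to 13.73 and 13.60 to 13.84, with Acta2 at 0.25 ± 0.10 (SE; adjusted p = 0.303). For fibroblasts (7 of 7, 0 passed, 4 at an unadjusted p under 0.05, which 14.3% of all genes reached) they were 11.93 to 12.29 and 12.10 to 12.68, and the median change was 0.52. The fibroblast markers went both ways, 5 being higher and 2 lower, with the brightest, Dcn, at -0.10 ± 0.17 (SE; limma adjusted p = 0.835). The part of these markers in the Gata4 difference was not tested. Mesothelium (4 of 6 markers; 7.93 to 8.27 and 7.96 to 8.08), endothelium (6 of 7; 9.49 to 9.59 and 9.23 to 9.72), enteroendocrine cells (7 of 7; 11.46 to 11.92 and 11.36 to 11.91) and lymphocytes (6 of 8; 11.33 to 11.93 and 11.29 to 11.93) had overlapping ranges and 0 genes past the threshold or at an unadjusted p under 0.05. So had exocrine pancreas (8 of 8; 8.31 to 8.61 and 8.47 to 8.62) and stomach (4 of 7; 6.05 to 6.37 and 6.27 to 6.43), where 2 and 0 of the measured genes lay above the median of all rows. Of the 4 mesothelium genes, only 1, Krt7, lay above that median, so a difference in the others may be understated. The sums are led by the brightest genes of a list. In mean log2 level the lymphocyte markers were at 7.71 to 8.53 in sham and 7.20 to 8.33 after DJB, lowest in DJB 2.

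Genes whose levels over the 6 arrays were most like those of Gata4 were found by the root mean square difference after each gene was centred on its own mean. The closest was Slc36a1, a proton-coupled amino acid transporter gene, at a difference of 0.153, followed in order by Aadac, a lipid and drug hydrolase gene, Slc7a8, a neutral amino acid exchanger gene, Kcnj13, a potassium channel gene, and Capn8, a gut calpain gene, at 0.236. Slc36a1 read 9.30, 9.57 and 9.26 in sham and 8.56, 7.72 and 8.06 after DJB. As with Gata4, DJB 2 was its lowest array and DJB 1 the highest of the DJB arrays. All 5 fell by limma, from -1.26 for Slc36a1 to -0.94 for Capn8. They were chosen for their likeness to a gene with a low DJB level, so that their falls say nothing further about Gata4. Each of the 5 calls was lost in 5 to 8 of 13 alternatives, with adjusted p up to 0.128 for Aadac and 0.167 for Slc7a8, and the losses included leaving out sham 2 or sham 3 for every gene.

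**Figure D4:**
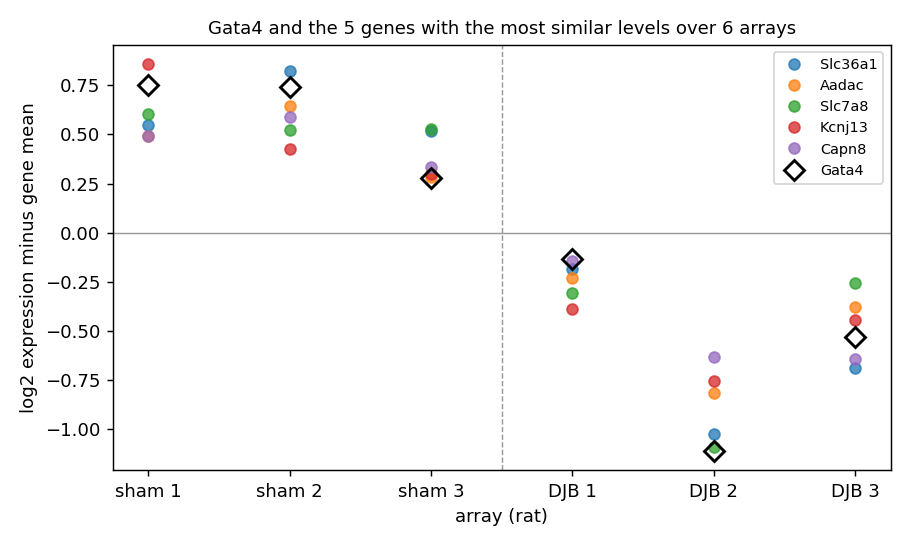
Log2 level minus the gene's mean over 6 arrays (vertical axis) for Gata4 (open diamonds) and the 5 genes of most similar levels (points), by array. All 6 genes lie above 0 on the sham arrays and below 0 on the DJB arrays.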

How the data were processed

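Ileum RNA of 3 DJB and 3 sham rats was measured, 1 array per rat, and groups and rat numbers come from the sample titles. The deposited table holds log2 values for 29214 rows, made by the authors with RMA per the submitters' processing notes (version and genome build not given in the sources used here). RMA sets arrays to nearly the same distribution, which hides any shift common to most genes, and it understates differences of dim rows. Rows with exactly 1 symbol in the platform annotation were kept, and for a gene with several the row of highest mean, which gave 14506 genes. limma 3.58.1 in R 4.3.3 (lmFit, eBayes, no covariate, two-sided, no filter) was fitted over all of them. The fit was also run on simulated data with independent noise for each gene, which hold no effect shared across an array. Lists are described by counts and medians, with no set test. Named were all members, up to 6 called genes and 2 more by lowest p from each list, Slc10a2, Fabp6, Zfpm1 and Hnf4a, the brightest gene of each cell type list (given here only where a result touches it), and the 5 genes most like Gata4; Cubn, Amn, Tcn2, Fgf19, Nr0b2, Sct, Slc40a1, Slc11a2 and Cybrd1 were added once their values had been seen. The members, lists and tests were chosen with earlier results of these data known. Figures used matplotlib 3.10.9. The labels give no batch.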

Additional observations from a re-analysis of the deposited data

How the results depend on the processing

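The 13 alternatives were a replicate block, repeated quantile normalization, median centring, dim rows left out, a trended and robust variance, all rows tested, the mean of a gene's rows, and each array left out in turn. Over all genes, 112 were called, 225 with dim rows left out (fewer genes tested), 313 with the trended variance and 33 to 108 without 1 array. Of the members 0 were called, but 1, Gata4, was called with median centring (-1.21) and with dim rows left out (-1.18), and 0 to 1 without 1 array; its change ran from -1.41 to -0.92 over the arrays left out. The Cdx2 difference turned to -0.0049 with median centring and ran from -0.0285 to 0.0820 without 1 array. Gata5 and Gata6 were lower after DJB and not called in all 13. In the upper small intestine list, 8 genes fell, 5 with all rows tested and 2 to 9 without 1 array, and 0 rose, but 1 with dim rows left out and 2 with the trended variance. In the ileal list 1 rose and 0 with the trended variance, and 0 fell in any alternative. The differences between Gata4 and the other members kept their sign in each alternative run for them. Apart from settings that test fewer genes or fewer arrays, the cause was not tested.

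The replicate numbers did not pair the rats: deviations from the group means of same-numbered arrays correlated across genes at 0.00532, -0.121 and -0.149. With the replicate number as a block, 50 genes were called over all genes, 4 fell in the upper small intestine list, and Gata4 had an adjusted p of 0.111. Signal near that of the median row limits Gip, Zfpm2, Prox1, most relatives of the members and the Gata4 value of DJB 2.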
